A study of Homo sapiens with 2 samples.

Results

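The 6 genes described here encode the human enzymes that write and erase DNA methylation: the methyltransferases DNMT1, DNMT3A and DNMT3B and the dioxygenases TET1, TET2 and TET3. Accessible chromatin around them was measured by ATAC-seq, which sequences the fragments that a transposase inserts its adapters into where DNA is exposed, in GM12878, a B lymphoblastoid line transformed with Epstein-Barr virus and left untreated. The 2 libraries, of 50000 cells each, came from separate cultures of the same line, and the study has no second condition to set against them. Both libraries share a single deposited list of 23612 regions in the build hg19. A region belonged to a gene when its midpoint lay within 30 kb of the gene's hg19 span, and 14 of the 23612 regions did. The rule uses position alone and no score or width of a region. The list holds no counts, and nothing in it belongs to one library alone, so depth and the spread between cultures are unknown and no test was made. Positions of exons and of B cell marker genes in hg19 were not used here, so the regions were not sorted into exons, introns or untranslated regions, and the label of the line was not checked against its markers.

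Methylation of the cytosine in a CpG dinucleotide is a lasting mark that is copied when DNA replicates. DNMT1 restores it on the newly made strand, whereas DNMT3A and DNMT3B place it on unmethylated DNA. The TET enzymes oxidise the methyl group, which starts its removal. In blood, DNMT3A and TET2 are known as genes that are often mutated in clonal expansions and leukaemias, and in mice TET2 takes part in B cell maturation.

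By the spans used, TET2 was the only 1 of the 6 genes with a listed region at its start. The start was taken as the stretch from 1000 bases before to 1000 bases after the first base of the span. For TET3 the span is 90.0 kb shorter than the RefSeq gene, and the RefSeq starts of TET3 were not examined on the list. The share of all genes with a region at the start was not counted, so whether 1 of 6 is usual for this list is unknown. The RefSeq promoters of TET2 are therefore shown first, followed by those of DNMT1 and TET1, at whose starts no region was listed. Each sequence is from RefSeq (build GRCh38.p14) and runs 5′ to 3′ from 250 bases before to 50 bases after a transcript start. Capitals mark CpG sites, the substrate of the enzymes that the genes encode.
TET2 first start, chr4:105145625-105145924, plus strand: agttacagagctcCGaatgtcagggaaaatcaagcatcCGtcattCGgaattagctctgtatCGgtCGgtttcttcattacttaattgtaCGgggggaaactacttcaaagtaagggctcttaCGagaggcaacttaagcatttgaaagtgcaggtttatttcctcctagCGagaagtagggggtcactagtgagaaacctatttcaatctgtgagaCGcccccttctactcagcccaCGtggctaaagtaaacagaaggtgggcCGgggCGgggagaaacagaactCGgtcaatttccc
TET2 second start, chr4:105146626-105146925, plus strand: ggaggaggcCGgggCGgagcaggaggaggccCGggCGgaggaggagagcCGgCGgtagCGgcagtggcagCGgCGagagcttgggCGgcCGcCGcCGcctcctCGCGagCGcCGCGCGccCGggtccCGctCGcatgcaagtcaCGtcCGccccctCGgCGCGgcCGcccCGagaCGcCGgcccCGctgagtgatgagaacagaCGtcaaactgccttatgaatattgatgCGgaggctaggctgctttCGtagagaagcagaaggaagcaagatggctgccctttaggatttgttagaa
DNMT1 start, chr19:10194904-10195203, minus strand: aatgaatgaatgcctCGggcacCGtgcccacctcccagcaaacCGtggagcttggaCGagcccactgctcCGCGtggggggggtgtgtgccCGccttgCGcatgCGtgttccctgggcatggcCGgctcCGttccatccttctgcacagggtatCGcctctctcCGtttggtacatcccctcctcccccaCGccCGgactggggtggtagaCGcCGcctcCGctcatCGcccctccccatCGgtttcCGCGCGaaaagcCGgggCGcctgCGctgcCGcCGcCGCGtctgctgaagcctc
TET1 first start, chr10:68560087-68560386, plus strand: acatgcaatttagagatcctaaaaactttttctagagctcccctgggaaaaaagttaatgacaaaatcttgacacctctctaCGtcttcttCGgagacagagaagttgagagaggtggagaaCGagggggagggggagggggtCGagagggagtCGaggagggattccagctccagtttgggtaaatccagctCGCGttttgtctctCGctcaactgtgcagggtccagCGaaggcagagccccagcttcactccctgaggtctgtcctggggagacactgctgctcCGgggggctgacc
The first TET2 promoter held 13 CpG sites and the second 35, the DNMT1 promoter 30 and the TET1 promoter 10. All 6 genes had an entry in the promoter table, with 15 starts in all. The median over the 35116 promoters of the table was 14 CpG sites, with quartiles at 4 and 28. The 2 TET2 starts lie 1001 bases apart, and the first had fewer and the second more CpG sites than the median promoter.

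The promoters of the 6 genes ranged from 3 to 46 CpG sites. DNMT3A has 6 listed starts in 2 groups: 3 within 0.7 kb of the outer end of the gene, with 18, 26 and 46 CpG sites, and 3 about 90.3 to 90.5 kb further in, with 28, 26 and 18. Some of these promoters overlap one another. The 2 TET3 promoters held 45 and 33 CpG sites, and the 3 of TET1 held 10, 6 and 11. The only DNMT3B promoter of the table held 3, and it lies 17.5 kb inside the gene and not at its first base. Thus the promoters of DNMT1 and TET3, part of those of DNMT3A and the second of TET2 lay well above the median of all promoters. The outermost and innermost DNMT3A promoters, with 18 CpG sites each, were closer to it. The first TET2 promoter, all those of TET1 and the one of DNMT3B lay below it. The starts of DNMT1, with 30 CpG sites, and of DNMT3A lay in stretches without a listed region. With a region at the start of TET2 alone, and promoters from another build, a relation between CpG sites and listed regions was not tested.

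**Figure D1:**
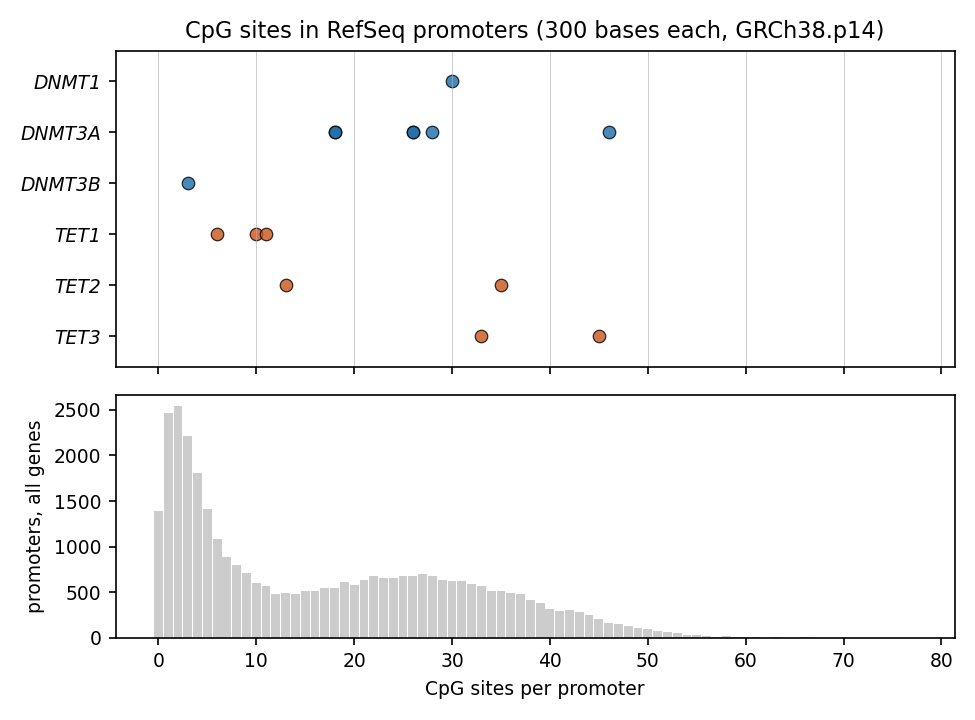
CpG sites per 300-base RefSeq promoter (GRCh38.p14), with 1 point per promoter of the 6 genes (top; blue DNMT, orange TET; equal counts overlie) above the number of promoters of all genes at each CpG count (bottom). TET2 has 1 promoter on either side of the median of 14, and the promoters of the 6 genes run from 3 to 46.

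Short motifs were searched by their letters on both strands of the 15 promoters, as a description of these letters only. GGGCGG, a GC box, was in 8 of the 15 promoters and in 45.0% of all promoters of the table. The 8 include the overlapping promoters of the inner DNMT3A group. GGGCGG occurred 5 times in the second TET2 promoter and 1 time in the first. The inner DNMT3A promoters held it 4, 2 and 3 times, the third outer one 3 times, and the TET3 promoters 3 and 1 times. It occurred 0 times in the promoters of DNMT1, TET1 and DNMT3B and in the first and second of DNMT3A. Genes without a listed region at the start thus also carried it. CACGTG, an E-box that reads the same on both strands, was in 4 of the 15 and in 7.3% of all promoters. These 4 were the first TET2 promoter, the first TET3 promoter and 2 overlapping promoters of the inner DNMT3A group. TGACG, part of a cyclic AMP response element, was in the 2 TET2 promoters and none of the other genes' promoters, and in 24.6% of all. CCAAT was in 4 of the 15 and in 34.6% of all, namely in 1 promoter of DNMT3B, 1 of TET3 and 2 overlapping ones of TET1. The ETS-type motif CCGGAA was in 0 of the 15 and in 17.2% of all. GGAAGT, which shares GGAA with it, was in 2 of the 15 and in 22.8% of all. Both are promoters of DNMT3A that overlap and share the site.

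TET2 spans 106067842 to 106200960 on the plus strand of chromosome 4. The region at its start (chromosome 4, 106066491 to 106068293) was 1803 bp wide and had the highest score of the list, 1000. The score is the authors' own value per region and is used here only to rank regions within the list. The region reached from 1351 bases before the start to 451 bases after it, so that most of it lay upstream. Only 5.02% of the listed regions were as wide or wider. Its width exceeded the distance of 1001 bases between the 2 RefSeq starts of TET2. The RefSeq gene is 810 bases longer than the span used. Where the span begins relative to the 2 starts was not determined, since the builds differ, and it may begin at neither.

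TET2 carried 3 further regions. A pair lay inside the gene, with midpoints 45.2 and 48.3 kb after the start, or 34.0% and 36.3% of the way along it. The first of the pair was 575 bp wide with a score of 965 (106112794 to 106113368), and the second 639 bp wide with a score of 1000 (106115842 to 106116480). A gap of 2.47 kb separated them, and 9.25% of the 23421 gaps between neighbouring regions on chromosomes 1 to 22 and X were as short. The fourth region lay 26.1 kb past the end of the gene (106226032 to 106228111). At 2080 bp it was the widest of the 14 regions, and 2.85% of the list was as wide. RefSeq places the antisense RNA gene TET2-AS1 across part of TET2 in GRCh38.p14, and no protein-coding gene within 30 kb downstream of it.

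**Figure D2:**
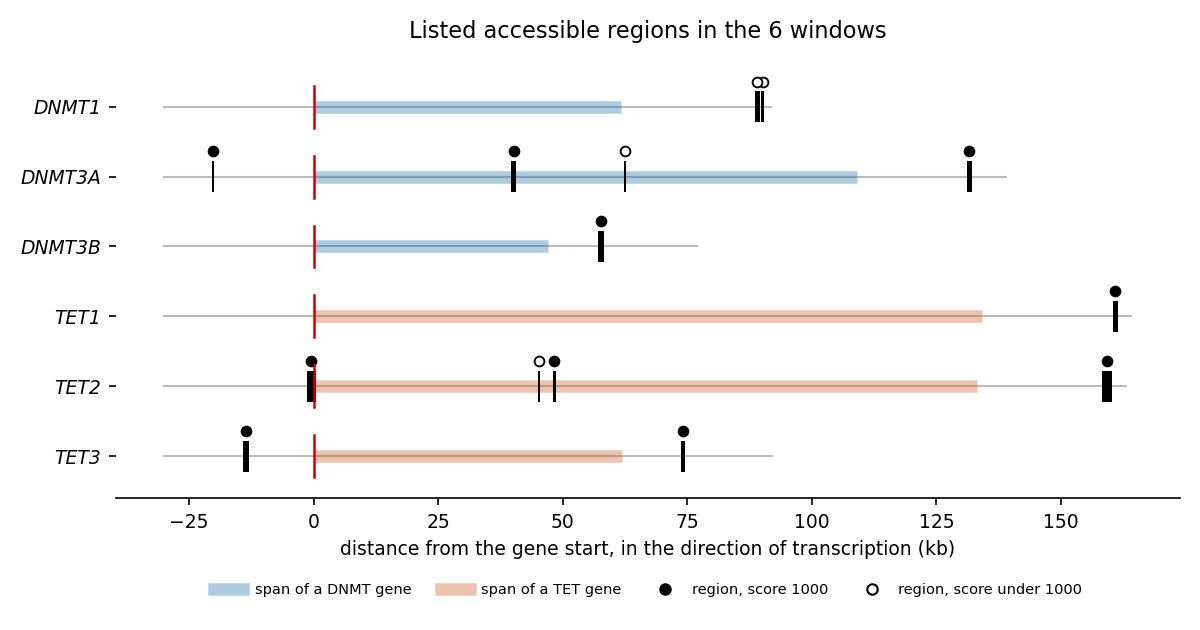
Map of the 6 windows, each from 30 kb before to 30 kb after a gene span. Distance is in kb from the start of the span used (red line), in the direction of transcription. Black bars are regions drawn to scale, with a filled circle above a score of 1000 and an open circle above a lower score; a bar meets the red line for TET2 alone, and each span has at least 1 region past its end.

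DNMT3A, which sets up methylation patterns in blood stem cells, had as many regions as TET2, 4, but none at its start. Its span is 25455830 to 25564784 on the minus strand of chromosome 2. The nearest was 582 bp wide, with a score of 1000, and centred 20.2 kb upstream (chromosome 2, 25584693 to 25585274). Of the 2 regions inside the gene, 1 lay 40.1 kb after the start, 906 bp wide with a score of 1000 (25524221 to 25525126). The other lay 62.5 kb after it, 514 bp wide with a score of 964 (25502016 to 25502529), and was the narrowest of the 14. Both distances are shorter than the 90.3 kb to the inner group of RefSeq starts in GRCh38.p14, and no region was listed between the second of them and the end of the gene. The last region was centred 22.6 kb past the end of the gene, 935 bp wide with a score of 1000 (25432738 to 25433672). Successive gaps in this window were 68.34, 21.69 and 59.57 kb and none was within the joining distance, although the gap of 21.69 kb joins the regions inside the gene when regions up to 25 kb apart are joined. In GRCh38.p14 no protein-coding gene lies within 30 kb of DNMT3A, and the noncoding RNA gene LINC01381 lies downstream.

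DNMT1, the maintenance methyltransferase, had 2 regions, both far past its end and close together. Its span is 10244022 to 10305755 on the minus strand of chromosome 19. They were centred 27.3 and 28.4 kb downstream (chromosome 19, 10216221 to 10217276 and 10215297 to 10216026) and were 1056 and 730 bp wide. Their scores of 941 and 610 made DNMT1 the only one of the 6 genes without a region at the highest score, and 610 was the lowest of the 14, where the list goes down to 541. Only 194 bp lay between them, and 1.26% of gaps in the list were as short. In GRCh38.p14 the genes EIF3G, P2RY11, PPAN and ANGPTL6 lie within 30 kb downstream of DNMT1, among them a translation initiation factor subunit (EIF3G) and a purinergic receptor (P2RY11). The regions were not assigned to any of them. The next region beyond the window on that side lay 0.78 kb outside the limit, 1452 bp wide with a score of 1000, so that the 2 members are part of a longer row of regions. On the upstream side, where S1PR2, a sphingosine-1-phosphate receptor of B cells, is the neighbour in GRCh38.p14, the nearest region was centred 41.1 kb before the DNMT1 start.

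DNMT3B, the methyltransferase mutated in the ICF immunodeficiency syndrome, spans 31350191 to 31397162 on the plus strand of chromosome 20 and had 1 region. It was centred 10.7 kb past the end of the gene, 1092 bp wide with a score of 1000 (chromosome 20, 31407355 to 31408446). The neighbour downstream in GRCh38.p14 is MAPRE1, which encodes a protein of growing microtubule ends. The start of DNMT3B lay in the longest stretch without regions of the 6, at 461 kb, or 10.46 times the median gap of 44.1 kb.

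TET1, the founding member of its family, spans 70320117 to 70454239 on the plus strand of chromosome 10. It also had 1 region, centred 26.8 kb past its end, 886 bp wide with a score of 1000 (chromosome 10, 70480593 to 70481478). It lay 3.2 kb inside the limit of the window, whereas the region 2.79 kb outside the limit on the upstream side, 1056 bp wide with a score of 1000, was not a member. The downstream protein-coding neighbour in GRCh38.p14 is CCAR1, a regulator of the cell cycle and apoptosis. No region was listed along the 134.1 kb of TET1 itself.

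TET3, taken here as 74273405 to 74335302 on the plus strand of chromosome 2, had 2 regions, 1 on either side. The upstream one was centred 13.6 kb before the start, 1212 bp wide (chromosome 2, 74259204 to 74260415), and the downstream one 12.2 kb past the end, 766 bp wide (74347145 to 74347910), both with a score of 1000. For this gene the span used is short: at 61.9 kb it is 90.0 kb shorter than the RefSeq gene in GRCh38.p14, both of whose listed starts lie in the first 19.1 kb. How much of the difference lies at either end in hg19 was not determined, so either region may lie inside the longer gene, and the RefSeq starts of TET3 were not examined on the list. A region 738 bp wide, with a score of 652, was the next one upstream, 75.2 kb before the start of the span and outside the window. The neighbours downstream in GRCh38.p14 are BOLA3, which overlaps the end of the RefSeq gene, and MOB1A.

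By the spans used, more of the regions lay around these genes than in them. Of the 14, 1 lay at a start, 2 further upstream, 4 elsewhere in a span and 7 downstream, and each of the 6 spans had at least 1 region downstream, with the doubt given above for TET3. The spans of DNMT1, DNMT3B, TET1 and TET3 held the midpoint of no region. Spans without regions were common in the list: of tiles of the same length on the same chromosome, laid end to end between its first and last region, 63.4% were empty for DNMT1, 76.6% for DNMT3B, 52.3% for TET1 and 68.1% for TET3. For the lengths of DNMT3A and TET2 the empty tiles made up 54.3% and 50.2%, and these genes held 2 regions each. No stretch was masked, so unassembled or unmappable sequence counts as empty in these shares. The spans together held 7.32 regions per Mb, while the flanks held 27.78 per Mb. The flanks here include the region at the TET2 start, which is centred just before it and reaches into the gene. They also include both TET3 regions, either of which may lie inside the longer gene, so the contrast is uncertain.

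The 6 windows, flanks included, held 15.44 regions per Mb over 0.907 Mb. DNMT3A had 23.7 per Mb against 8.76 on chromosome 2, and TET2 had 20.7 against 8.63 on chromosome 4. DNMT1 had 16.4 against 8.93 on chromosome 19, TET3 had 16.4 against 8.76 on chromosome 2, and DNMT3B had 9.35 against 6.84 on chromosome 20. TET1 was below its chromosome, at 5.15 against 8.24 per Mb on chromosome 10. The densities of the windows rest on 1 to 4 regions each, and those of the chromosomes include unmasked sequence where no region could be listed. As many regions or more were held by 13.8% of tiles of the window's length for DNMT3A, 16.7% for TET2, 25.6% for TET3, 29.5% for DNMT1, 40.7% for DNMT3B and 56.1% for TET1. With empty tiles counted, none of the 6 windows was therefore at the sparse or the dense extreme of its chromosome. Single tiles held up to 16 regions on chromosome 2 and 12 on chromosome 4.

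**Figure D3:**
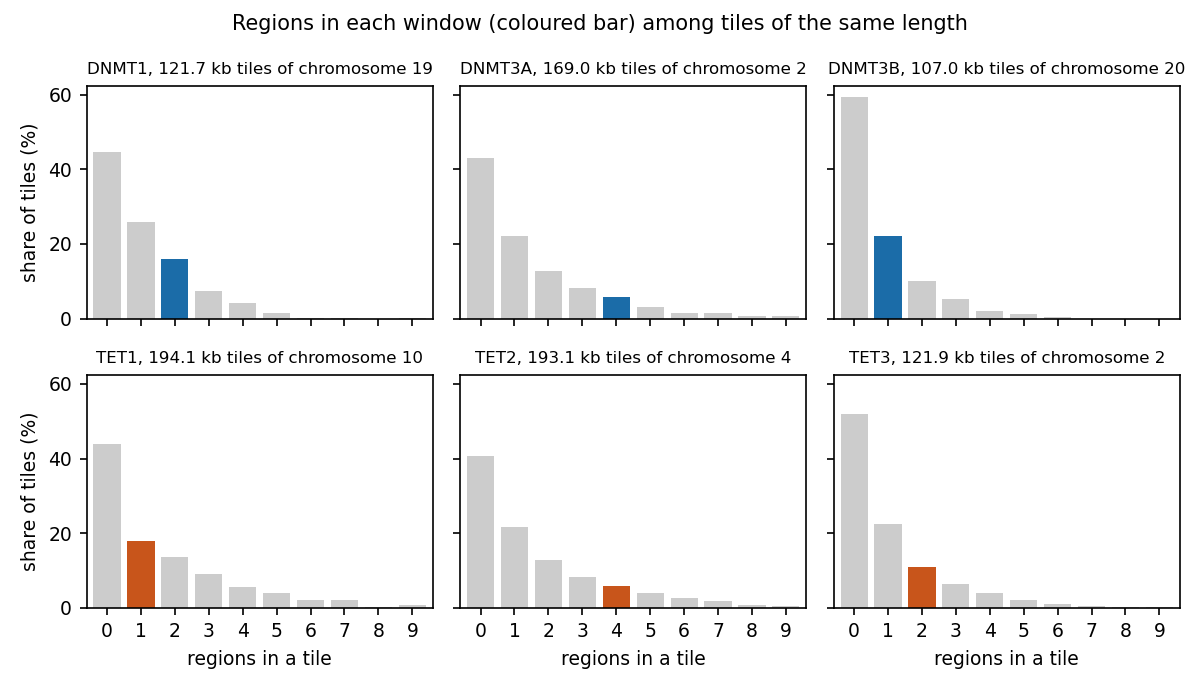
Share of tiles (%) by the number of regions they hold, for tiles of each window's length along the gene's own chromosome; the coloured bar marks the number in the gene's window, and the few tiles with more than 9 regions are not drawn. The DNMT3A and TET2 windows hold 4 regions, as many as or more than most tiles, and the DNMT3B and TET1 windows hold 1.

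The gene starts without a region lay at very different distances from the nearest one. The distance from the start to the edge of that region was 12.99 kb for TET3, 19.91 kb for DNMT3A, 32.26 kb for TET1, 40.85 kb for DNMT1 and 57.16 kb for DNMT3B. For TET3 this is the start of the span used, which may not be a RefSeq start. The stretch without regions that held the start was 59.6 kb long for DNMT3A, 86.7 kb for TET3, 129.3 kb for DNMT1 and 192.7 kb for TET1, besides the 461 kb of DNMT3B. Of the gaps in the list, 42.4% were as long as that of DNMT3A or longer, 32.7% for TET3 and 24.0% for DNMT1. For TET1 the share was 16.2% and for DNMT3B 5.3%. By sequence the shares were larger, since a long gap holds more of it. Gaps across unassembled or unmappable sequence were kept in both kinds of share. The starts of other genes were not compared. Of all sequence between regions, 90.6% lay in stretches as long as that of DNMT3A or longer, 85.0% for TET3, 77.5% for DNMT1, 67.5% for TET1 and 42.2% for DNMT3B. The region numbers ran on without a break through all 6 windows and their next neighbours, with 0 numbers skipped. Whether regions were numbered before or after the list was filtered is unknown, so the numbers cannot show whether any were removed there. A start without a listed region is not read as closed chromatin, because the depth and the signal under the threshold of the list are unknown, and because the deposited list appears, from its name, to have been filtered by reproducibility and mappability.

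The 14 regions were 514 to 2080 bp wide, with a median of 896 bp, against a median of 756 bp over all listed regions. The interval of the median from its order statistics was 582 to 1212 bp (coverage of at least 95%). It treats the regions as independent, which close neighbours may not be, and no difference from the list was tested. The 7 regions of the DNMT genes had a median of 906 bp and the 7 of the TET genes 886 bp, but the widest was 1092 bp near a DNMT gene and 2080 bp near a TET gene. By place, the 4 regions inside spans ran from 514 to 906 bp, with a median of 607 bp, and the 7 downstream ones from 730 to 2080 bp, with a median of 935 bp. At the highest score were 10 of the 14 regions, or 71.4% (exact 95% binomial interval 41.9 to 91.6%), against 60.1% of all listed regions. This interval covers counting error only, as if the regions were independent, and the difference from the list was not tested. The DNMT genes had 4 of 7 regions at the highest score and the TET genes 6 of 7, and the lower scores were 610, 941 and 964 near DNMT genes and 965 near TET2.

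**Figure D4:**
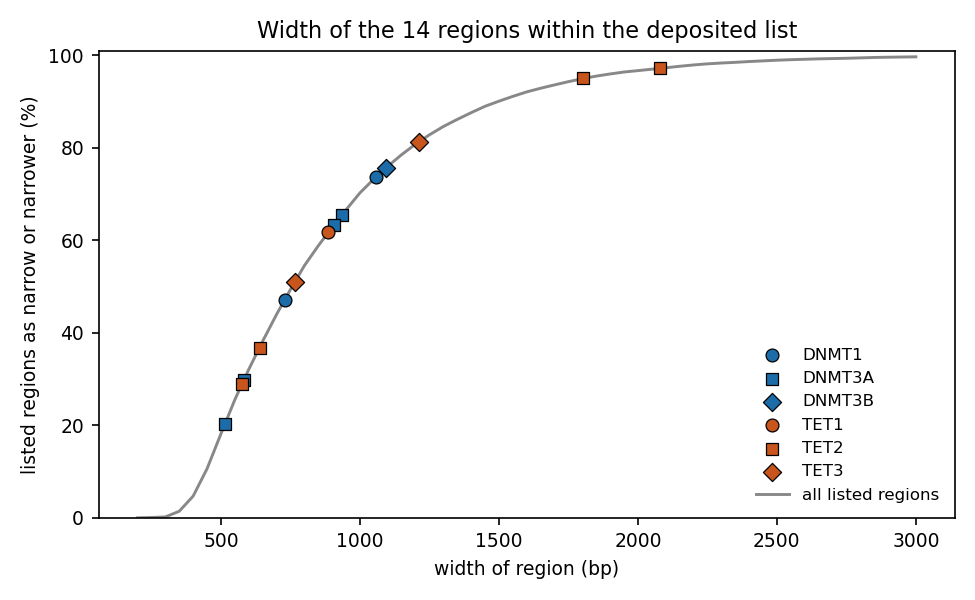
Width of each of the 14 regions (bp) against the share of listed regions as narrow or narrower (%), with the curve of all listed regions in grey; blue points are DNMT and orange points TET regions. The 14 regions are spread along the curve from 20.3% to 97.2%, and the 2 widest belong to TET2.

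Close neighbours were few. Of the 8 gaps between successive regions of a window, 2 were within the joining distance, and under 5 kb, that of the DNMT1 pair and that of the TET2 pair. The other 6 gaps ran from 21.69 to 109.55 kb, and the largest separated the pair inside TET2 from the wide region downstream of it.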

How the data were processed

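ATAC-seq was done on 2 cultures of GM12878. A single list without a header was deposited for both, giving for every region its bounds, a number and a score. The deposited score is a whole number up to 1000 whose scale no header or label names. The name under which the list was deposited reads as a limit on the irreproducible discovery rate and as filters for mappability, mitochondrial reads and a blacklist, without further description. Per the submitters' processing notes, MACS2 2.1.0, BWA 0.7.13, Trim Galore 0.3.3 and bedtools 2.24.0 were used, along with SAMtools 0.1.19, CASAVA 1.8.4 and Picard 1.92, on the build hg19. Their roles, and whether reads were shifted for the transposase, are not given in the sources used here. Depth is unknown.

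Regions were assigned by midpoint to 6 gene spans with 30 kb flanks, with gene starts taken from the spans. All 6 genes and, for each, its region nearest the start, its widest and its farthest region are named, and the rest are given by range or value. Densities, tiles and gaps use the extent from the first to the last region of a chromosome, with no sequence masked. Neighbouring genes (names only) and promoters come from RefSeq tables of GRCh38.p14, and no coordinates were converted. Counts at 15 further genes of the pathway were not made, since no hg19 annotation was used here. The genes, and with them the members, and the motif lists were chosen with earlier results of these data known. Calculations used Python 3.11.15, numpy 2.4.6, pandas 2.3.3, scipy 1.17.1 and matplotlib 3.10.9, and counting was tested on simulated data. The alternatives were other flanks, overlap in place of midpoints, the highest score only, other start windows, tiles that hold a region and other joining distances.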

Additional observations from a re-analysis of the deposited data

How the results depend on the processing

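The number of regions depended on the flank, by construction: 5 with a flank of 10 kb, 4 in the spans alone and 34 with a flank of 100 kb, against 14. The density over the 6 genes was 7.32 regions per Mb in the spans alone, against 15.44 with the flanks. The other 11 of 15 alternatives for the main values left them within 1.5 times or within their interval. Values of single genes were less steady: of 36 alternatives for them, 13 left them the same in this sense and 23 moved them. By the spans used, TET2 alone had a region at its start with the start base itself, with 2500 bases either side and with the highest score only. In the spans alone the median width was 607 bp and the share at the highest score 50.0%. Counting only regions at the highest score left DNMT1 with 0 regions. Among tiles that hold a region, 24.2% held as many as the DNMT3A window or more and 28.1% as many as that of TET2. The share was 53.4% for DNMT1 and for TET3. It was 100% for DNMT3B and TET1, whose windows held the fewest regions that such a tile can hold. At a joining distance of 25 kb, 3 windows in place of 2 held joined regions. No paired analysis was possible because the 2 cultures were merged into a single list, and for the same reason neither culture could be left out. With depth unknown, an unlisted start is not shown to be closed.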

Other observations

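Just beyond the windows, between 30 and 100 kb from the spans, 20 further regions were listed, and their number differed among the genes. How many regions other stretches of this length hold was not counted. TET3 had 7 of them, 6 of which lay downstream, between 39.8 and 98.2 kb past its end. DNMT1 and TET2 had 4 each, DNMT3A 3, TET1 2 and DNMT3B 0. Upstream of TET2, 3 regions lay in a row 85.5 to 88.4 kb before its start, 1507, 729 and 1356 bp wide, with scores of 1000, 1000 and 562. Upstream of DNMT3A, a region 1680 bp wide with a score of 1000 lay 77.4 kb before the start. These regions were described after their values were seen, and none was assigned to a gene.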
